A study of Mus musculus with 41 samples.

Results

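The cell cycle and DNA replication genes described here are 43 genes that mouse cells use to copy their chromosomes, divide, or hold back from dividing. They were chosen by name from their textbook roles, not by their level in these libraries, but with earlier results of these data known. They are 43 of the 23366 gene rows in the count tables. All 43 were found. Of these, 42 passed the filter on low counts in every comparison, and 1, Cdkn2a, passed in none. Levels are CPM, the usual depth-scaled read count, in which a gene's counts are divided by the total gene counts of its library and multiplied by a fixed constant. They are not corrected for gene length and are compared between libraries for 1 gene at a time.

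The libraries came from small intestine of mice of mixed C57BL/6 and CD1 background, and each was made from 250 cells isolated by flow cytometry. At embryonic day 11.5 (E11.5) the groups were EpCAM+ epithelium labelled wild type (wt) or Id2KO, Lgr5-EGFP+ EpCAM+ epithelium labelled Id2KO, and EpCAM- mesenchyme labelled wt or Id2KO, with 3 libraries in each of these 5 groups, and each library is labelled as 1 embryo. At E13.5 there were 4 libraries of Lgr5-EGFP+ EpCAM+ epithelium and 4 of EpCAM+ epithelium, each from a pool of 6 to 12 embryos, and the labels give no genotype. At postnatal day 60 there were 4 libraries of Lgr5+ stem cells with neither a gut region nor a genotype in the labels. The same day gave Lgr5+ stem cells of anterior, middle and posterior segments of the small intestine labelled wt or Id2KO, with 2 libraries in each of these 6 groups, and 2 libraries of Tomato+ Lgr5+ cells of the posterior segment labelled Id2KO. The study asked how Id2, a partner that keeps E proteins off DNA, bears on the Lgr5+ progenitors of the embryonic gut. The labels name neither the Id2 allele nor any Cre line, and do not say what Tomato marks. Where nothing says that libraries of a group came from separate animals, p-values measure only the spread between these libraries.

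Cells enter the division cycle when D-type cyclins activate Cdk4 and Cdk6, which free E2F factors to switch on the genes of DNA synthesis. The Mcm helicase is loaded on chromosomes by Cdc6 and Cdt1, cyclins E and A with Cdk2 drive copying, and cyclins B with Cdk1 drive mitosis, where Plk1, the Aurora kinases and the kinesin Kif11 build the spindle and Cdc20 starts the exit. Cdkn1a and Cdkn1b bind cyclin-dependent kinases and hold the cycle back. In the gut, fetal epithelium and adult crypt base stem cells both divide, and Mki67 and Top2a serve as general marks of dividing cells.

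Each library held 13.6 M to 51.2 M gene counts. Id2 itself separated the E11.5 genotypes: it was at 5308 to 6600 CPM in wt EpCAM+ libraries against 159 to 182 in Id2KO ones, and at 2180 to 2760 against 114 to 172 in mesenchyme. In the adult segments Id2 went against the label in 2 of the 3. It was at 195 and 199 CPM in the libraries labelled Id2KO against 104 and 64.1 in those labelled wt in the anterior segment, and at 135.2 and 162 against 75.2 and 84.9 in the posterior one, with no overlap. In the middle segment the values overlapped, at 98.9 and 113 against 101 and 125 CPM. All adult wt segment libraries, at 64.1 to 125 CPM, lay below the E11.5 Id2KO EpCAM+ libraries at 159 to 182. The deleted part of Id2 is not given, so these counts cannot check the adult labels. Every direction given below by the adult genotype therefore rests on labels that the Id2 counts do not bear out, and these libraries are called "labelled Id2KO" throughout. Epcam was at 1401 to 1775 CPM in E11.5 epithelium and at 1.93 to 7.54 in mesenchyme. Lgr5 was at 73.8 to 119 CPM in E11.5 Lgr5+ libraries against 2.40 to 7.49 in EpCAM+ libraries of the same genotype. Counts of Ddx3y, a gene of the Y chromosome, were 0 in all 14 libraries of adult segments and 167 to 236 CPM in the 4 adult libraries with no region. At E11.5 the 3 wt EpCAM+ libraries held Ddx3y at 18.0 to 25.8 CPM together with Xist, the RNA of the silent X chromosome, at 251 to 575 CPM, although the labels give 1 embryo each. In bulk libraries such as these, fewer cells expressing a gene and less RNA per cell cannot be told apart.

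The summed level of the 43 genes was between 0.615 and 1.39% of gene counts in every library. It was highest in Id2KO mesenchyme (mean 1.35%, SD 0.044, n = 3) and lowest in the adult Lgr5+ group with no region (0.646%, SD 0.036, n = 4). Wt mesenchyme was at a mean of 1.05% (SD 0.040, n = 3). These are plain shares of a library's total, as are the CPM given here. Red cell transcripts, given below, were higher in wt than in Id2KO mesenchyme, and their part in this order was not tested. In E11.5 EpCAM+ epithelium the summed level was 0.869 to 0.943% in wt libraries and 1.09 to 1.16% in Id2KO ones, which did not overlap. The E13.5 EpCAM+ libraries spread from 0.698 to 0.988%. Mki67, a nuclear protein of dividing cells, was at 99.0 to 170 CPM in the 9 libraries of E11.5 epithelium and at 159 CPM or more in every other library. Its highest group was wt mesenchyme, at 476, 329 and 512 CPM. Cdkn2a, a CDK inhibitor of ageing and stressed cells, was at 0.358 CPM or less in every library.

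**Figure D1:**
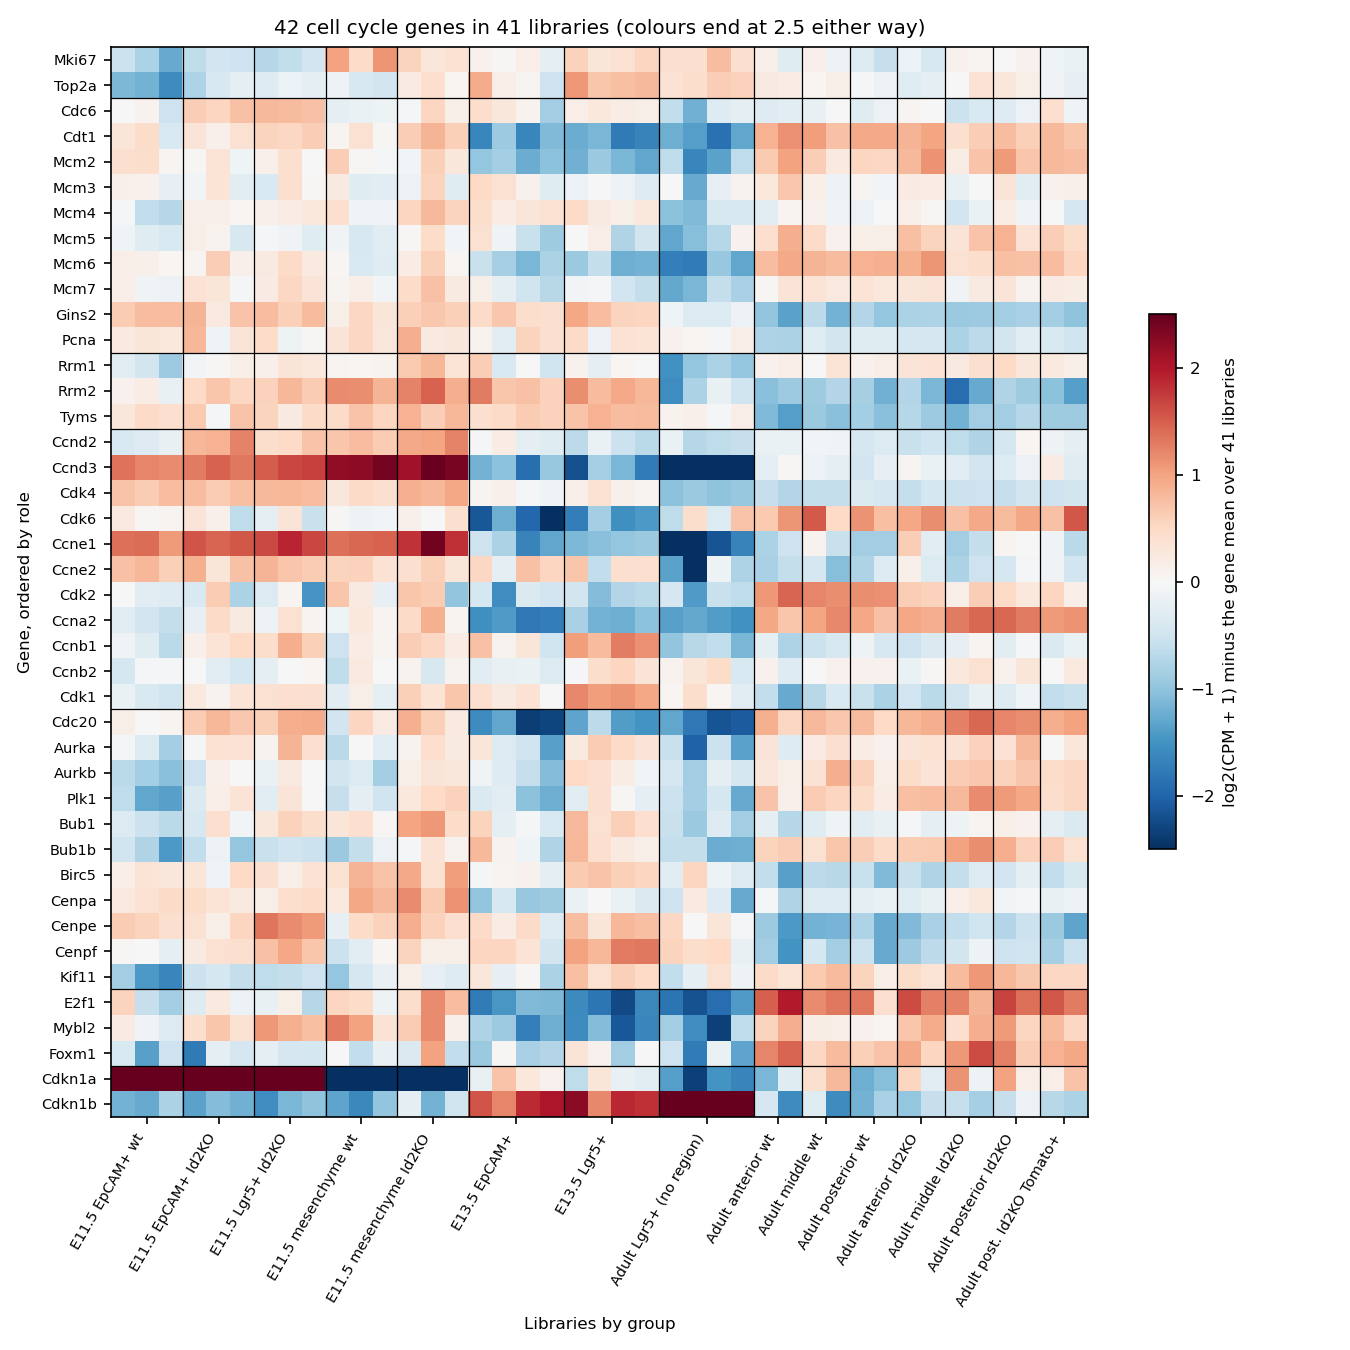
Levels of the 42 tested genes (rows, by role) in 41 libraries (columns, by group), as log2(CPM + 1) minus each gene's mean over all libraries; red is above and blue below that mean, and colours end at 2.5 either way. Ccnd3 and Ccne1 are red in all 5 E11.5 groups and darkest blue in the adult Lgr5+ group with no region, Cdkn1a is red in E11.5 epithelium and blue in mesenchyme, and Cdkn1b is red in the E13.5 libraries and in that adult group.

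In E11.5 EpCAM+ epithelium, 7 of the 42 tested genes were higher in Id2KO than in wt libraries and 0 were lower, where 1.66% of all genes tested were called (0.871% higher and 0.785% lower). The D-type cyclin Ccnd2 rose most, and the others were the DNA untangling enzyme Top2a, the replication licensing factor Cdc6, and 4 genes of mitosis, Cdk1, Cdc20, Plk1 and Kif11. A gene is called at an adjusted p under 0.05 (edgeR quasi-likelihood test, Benjamini-Hochberg over all genes tested). The median log2 fold change of the 42 genes was 0.27, beside 0.01 for all genes tested, and 35 of them were above 0.

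Ccnd2 carries growth signals into the cell cycle. It was at 466, 486 and 534 CPM in the 3 wt libraries and at 1090.0, 1113 and 1447 in the 3 Id2KO ones (log2 fold change 1.34 ± 0.15, adjusted p = 0.00131). Every Id2KO library stood above every wt one. Exons of Ccnd2 overlap 2 genes on the opposite strand, and the strand setting of the counting is not given in the sources used here, so reads of those genes cannot be told apart from its own. Top2a was at 196, 187 and 142 CPM in wt and 250.4, 323 and 363 in Id2KO libraries (log2 fold change 0.88 ± 0.16, adjusted p = 0.0195). Its ranges did not overlap, whereas those of Mki67 did: it was at 163, 138 and 99.0 CPM against 153, 169.8 and 167, a difference that was not called (log2 fold change 0.34 ± 0.16, adjusted p = 0.407).

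Among the 11 mitosis genes, 3 were called. Plk1, the kinase that matures centrosomes and spindle poles, was at 67.6, 41.9 and 40.5 CPM in wt and 81.5, 117 and 134 in Id2KO libraries (log2 fold change 1.20 ± 0.24, adjusted p = 0.0333). Cdc20, the activator of the anaphase-promoting complex, was at 161, 145 and 151 against 224, 259 and 230.1 CPM (log2 fold change 0.68 ± 0.13, adjusted p = 0.026). Kif11, the motor that pushes spindle poles apart, was at 73.2, 49.0 and 42.9 against 91.7, 99.2 and 89.2 CPM (log2 fold change 0.81 ± 0.18, adjusted p = 0.0489). In each of these the lowest Id2KO library stood above the highest wt one. Exons of Cdc20 and Plk1 each overlap a gene on the opposite strand, with the strand setting not given. The wt library nearest to the Id2KO ones for Plk1 and Kif11 was replicate 1, one of the libraries with macrophage transcripts described below.

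Cdk1, the kinase that starts mitosis, was at 259.9, 226 and 209 CPM in wt and 346, 313 and 374 in Id2KO libraries (log2 fold change 0.62 ± 0.13, adjusted p = 0.0364). Its partner Ccnb1 was at 163, 140.1 and 108 against 188, 219.8 and 244 CPM and was not called (log2 fold change 0.71 ± 0.17, adjusted p = 0.0713). Of 10 replication genes, Cdc6 alone was called, at 55.1, 57.9 and 38.1 CPM in wt against 84.0, 80.1 and 92.3 in Id2KO libraries (log2 fold change 0.81 ± 0.17, adjusted p = 0.037). The helicase subunits it helps to load moved less. Mcm2 was at 240.3, 247 and 193 against 186, 231 and 169 CPM and Mcm5 at 148, 128 and 122 against 175, 169 and 119, with log2 fold changes of -0.17 ± 0.16 and 0.26 ± 0.16 that were not called. Neither CDK inhibitor was called: Cdkn1a was at 268, 307 and 356 CPM in wt and 320.2, 279 and 396 in Id2KO libraries, and Cdkn1b stayed under 6 CPM in both.

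Ccnd2 was the 1 gene of the 7 whose call held in each of the 12 alternatives run, with log2 fold changes of 1.18 to 1.55 and adjusted p of 4.27e-13 to 0.0138. The number of genes called fell to 1 without Id2KO replicate 3, without wt replicate 2, without wt replicate 3, or with the 2 compared groups fitted alone, to 4 without wt replicate 1, and rose to 14 with the DESeq2 Wald test. Macrophage transcripts differed between these libraries: the summed level of 8 marker genes ran from 2.46 to 1020 CPM in Id2KO and from 94.2 to 885 in wt libraries, and C1qa, a complement gene of macrophages, was above 100 CPM in Id2KO replicates 1 and 2 and wt replicate 1. Without those 3 libraries, 5 of the 42 genes were called, 4 of them among the 7 (Ccnd2, Top2a, Plk1 and Cdk1). Ccnd2 was then at a log2 fold change of 1.55 and Plk1 at 1.75. That fit holds 1 Id2KO EpCAM+ library (replicate 3) against 2 wt ones, and the lone library is assumed to vary like the other groups. C1qa was still at 40.8 and 15.2 CPM in those 2 wt libraries, against 0.055 in the Id2KO one.

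**Figure D2:**
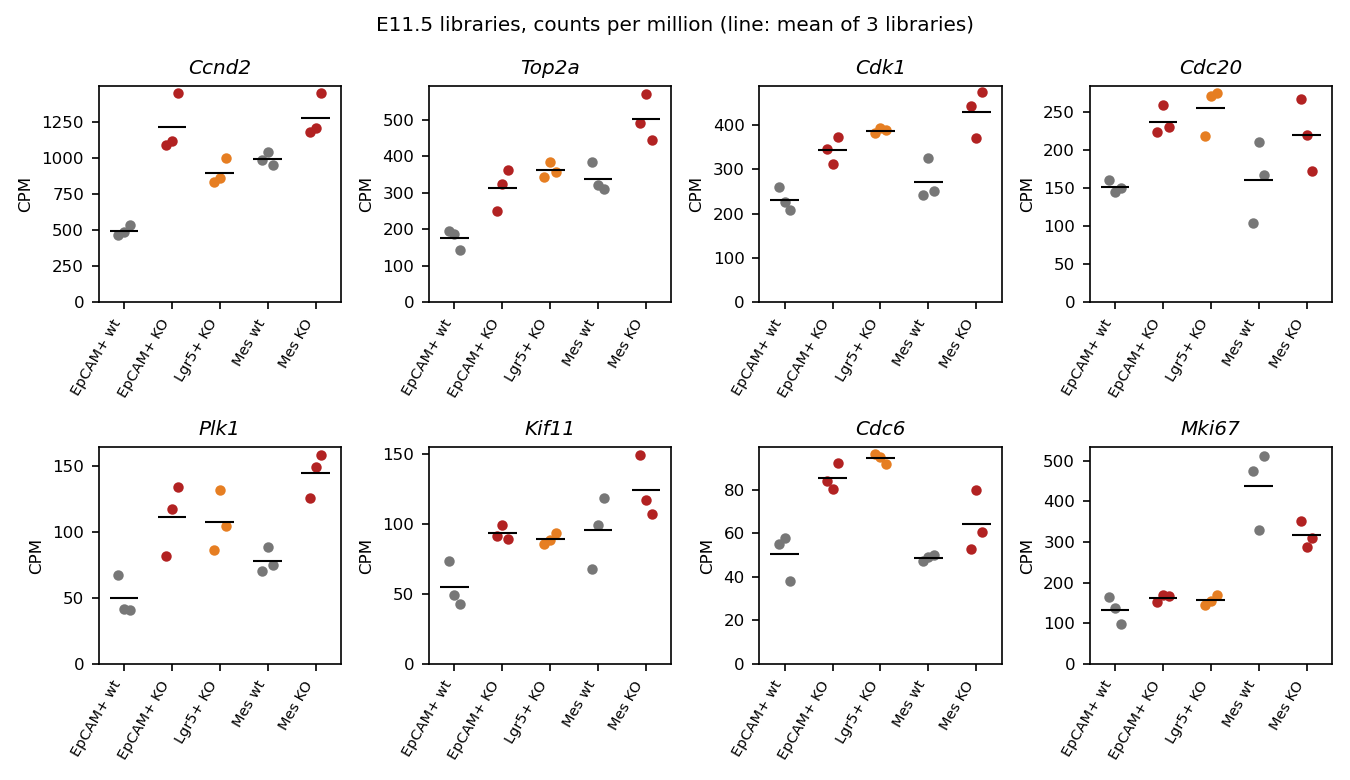
CPM of 8 genes in the 15 libraries of E11.5 (points) with group means (lines); grey is wt, red is Id2KO EpCAM+ or mesenchyme, orange is Id2KO Lgr5+. For Ccnd2, the 3 Id2KO EpCAM+ libraries stand at 1090.0, 1113 and 1447 CPM, above the 3 wt EpCAM+ libraries at 466, 486 and 534.

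The table of RefSeq start-site windows used here matched 36 of the 43 genes, among them 6 of the 7 called; Ccnd2 was not matched. Promoters of mitotic genes are known for 2 short elements, CCAAT, bound by NF-Y, and the cell cycle homology region TTTGAA, bound by the DREAM and MuvB complexes, while replication genes are known for E2F sites. In the 250 bases before the start sites, CCAAT on either strand was in 12 of 13 windows of the mitosis genes, mitotic cyclins and Cdk1 (92.3%), beside 33.9% of all 32851 windows. It was also in 9 of 12 windows of replication and nucleotide synthesis genes. TTTGAA was in 4 of those 13 (30.8%), beside 16.0% of all. TTTGGCGC or TTTCCCGC, the E2F letters searched on both strands, were in 4 of 12 windows of replication and nucleotide synthesis genes (33.3%), in 0 of the 13 mitotic ones, and in 1.30% of all. No motif searched lies within another, and a match is a description of the letters, not of binding. Shown are the 150 bases before the start site of the 6 called genes, and of the helicase gene Mcm6, which carries the E2F letters and is described below for its fall at E13.5. They are from RefSeq on GRCm38.p6, 5′ to 3′ on the strand of the gene, with matches to the 3 motifs on either strand in capitals. Top2a is at chr11:99024190-99024339 (minus strand), Cdk1 at chr10:69352913-69353062 (minus), Cdc20 at chr4:118437344-118437493 (minus), Plk1 at chr7:122159285-122159434 (plus), Kif11 at chr19:37376232-37376381 (plus), Cdc6 at chr11:98908001-98908150 (plus) and Mcm6 at chr1:128359706-128359855 (minus).
Top2a: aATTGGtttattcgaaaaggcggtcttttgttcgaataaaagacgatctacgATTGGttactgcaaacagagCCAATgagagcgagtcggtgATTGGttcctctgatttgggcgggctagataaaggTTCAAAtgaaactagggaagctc
Cdk1: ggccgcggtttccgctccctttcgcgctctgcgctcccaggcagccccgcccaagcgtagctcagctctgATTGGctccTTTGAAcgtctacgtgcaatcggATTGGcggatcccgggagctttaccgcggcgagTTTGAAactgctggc
Cdc20: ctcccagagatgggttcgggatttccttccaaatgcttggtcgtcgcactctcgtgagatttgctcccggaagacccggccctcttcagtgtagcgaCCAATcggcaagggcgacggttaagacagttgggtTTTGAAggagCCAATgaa
Plk1: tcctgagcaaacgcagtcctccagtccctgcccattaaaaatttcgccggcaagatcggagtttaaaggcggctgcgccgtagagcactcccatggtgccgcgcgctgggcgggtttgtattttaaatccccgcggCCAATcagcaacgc
Kif11: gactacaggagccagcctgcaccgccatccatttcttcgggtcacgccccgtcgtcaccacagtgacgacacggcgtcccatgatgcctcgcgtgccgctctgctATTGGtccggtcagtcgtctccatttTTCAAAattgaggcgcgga
Cdc6: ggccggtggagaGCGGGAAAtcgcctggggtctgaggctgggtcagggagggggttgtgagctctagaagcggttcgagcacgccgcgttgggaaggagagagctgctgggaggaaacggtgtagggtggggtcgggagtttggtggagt
Mcm6: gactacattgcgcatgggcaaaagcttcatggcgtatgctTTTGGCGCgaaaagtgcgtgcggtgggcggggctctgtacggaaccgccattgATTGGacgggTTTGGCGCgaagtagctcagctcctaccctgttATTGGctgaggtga
Within these 150 bases, Top2a, Cdk1, Cdc20 and Kif11 hold both CCAAT and TTTGAA, Plk1 holds CCAAT alone, Cdc6 holds 1 match to the E2F letters alone, and Mcm6 holds 2 copies of TTTGGCGC together with CCAAT.

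In E11.5 mesenchyme, 0 of the 42 genes were called between Id2KO and wt libraries, where 0.881% of all genes tested were called (0.0291% higher and 0.852% lower) (edgeR). At an unadjusted p under 0.05 there were 3, and the DESeq2 Wald test called 1. Here and below, shares of all genes are for the edgeR adjusted p and not for such counts. Red cell transcripts differed between these groups, with a summed level of 8 marker genes of 222280 to 269140 CPM in wt and 24772 to 59655 CPM in Id2KO libraries. Plain CPM are shares of a library's total and include these transcripts, whereas the fitted values are scaled with TMM factors. Ccnd2 was at 983, 1043 and 949 plain CPM in wt and 1181, 1206 and 1448 in Id2KO mesenchyme, but its TMM-scaled log2 fold change was -0.00 ± 0.16. Mki67 came nearest to a call, at 476, 329 and 512 plain CPM in wt and 352, 288 and 311 in Id2KO libraries (log2 fold change -0.83 ± 0.20, adjusted p = 0.115), and was not called. The part of the red cells in these values was not tested.

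The difference between the 2 Id2KO effects was tested directly. Ccnd2 was the 1 gene of the 42 called, with an effect in EpCAM+ cells larger by a log2 fold change of 1.33 ± 0.23 (adjusted p = 0.0145), where 0.593% of all genes tested were called (0.421% higher and 0.172% lower). Its call was lost without EpCAM+ wt replicate 1, EpCAM+ wt replicate 2, mesenchyme Id2KO replicate 1, mesenchyme Id2KO replicate 2 or mesenchyme wt replicate 2, with adjusted p of 0.053 to 0.0852 and log2 fold changes of 1.24 to 1.31. The number of genes called was 0 in 4 of these fits, and 1 without mesenchyme Id2KO replicate 1, which was then another gene. For Mki67 the difference was 1.16 ± 0.27, which was not called (adjusted p = 0.0918).

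**Figure D3:**
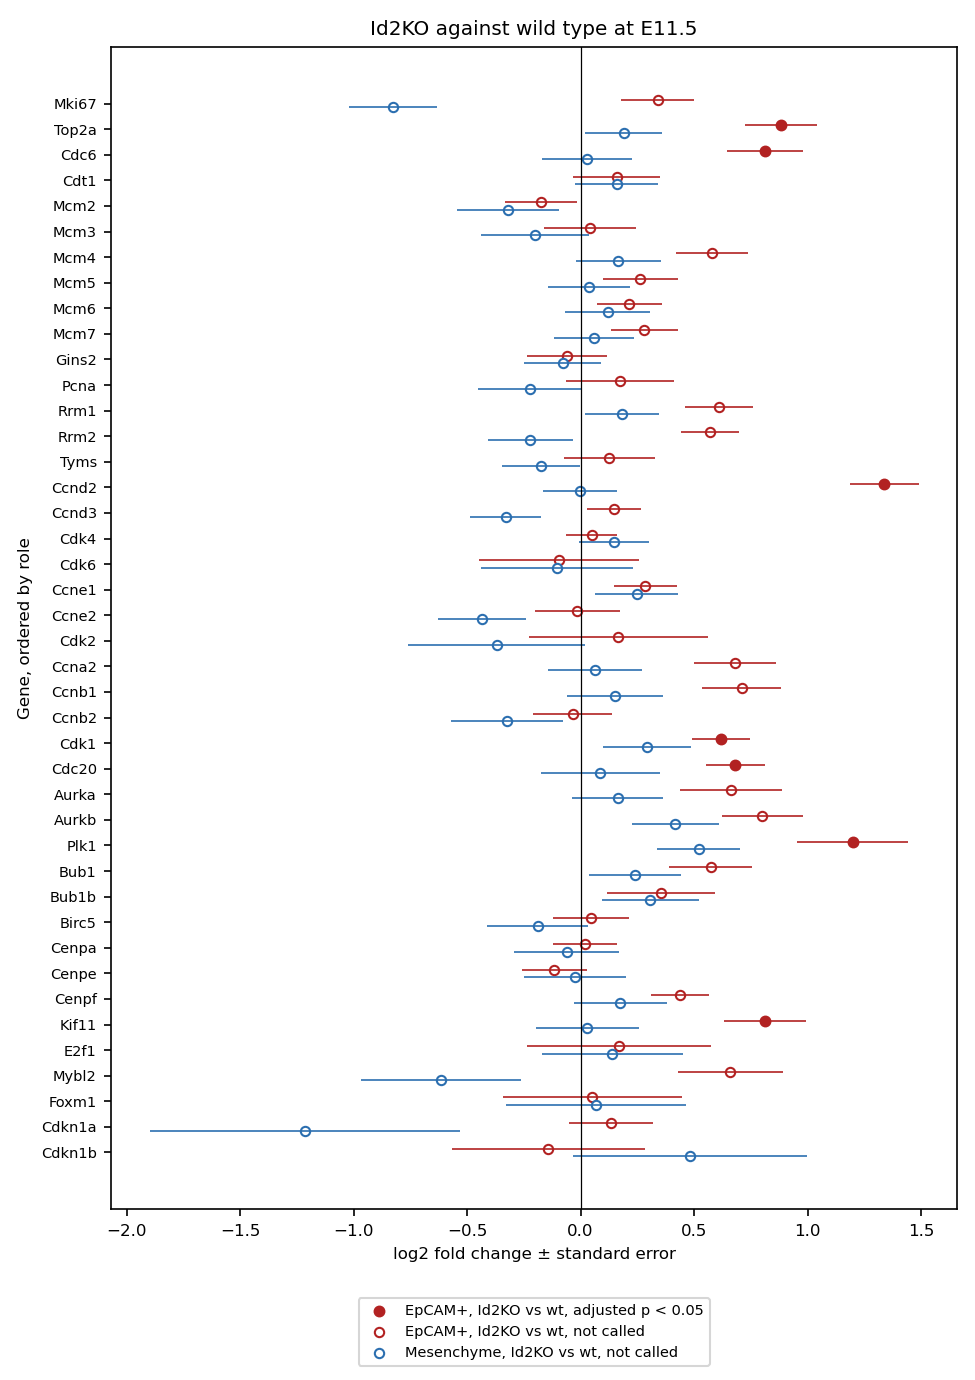
Log2 fold change ± standard error of Id2KO against wt at E11.5 for 42 genes, in EpCAM+ epithelium (red) and mesenchyme (blue), 3 libraries per group. Filled points have an adjusted p under 0.05: the 7 filled points are all in epithelium and above 0, led by Ccnd2 at 1.34, while Ccnd2 in mesenchyme is at -0.00.

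Of genes outside the 43, from lists written from general knowledge, 1 of 40 other S phase genes and 2 of 42 other G2 and mitosis genes were higher in Id2KO EpCAM+ epithelium, and 0 of 23 other G1 control genes were called. The S phase gene was E2f8, an E2F family repressor (log2 fold change 1.35 ± 0.27, adjusted p = 0.0313). The mitosis genes were Tubb4b, a beta-tubulin (0.87 ± 0.15, adjusted p = 0.014), and Cdca2, a phosphatase partner on mitotic chromosomes (0.72 ± 0.16, adjusted p = 0.0457). In mesenchyme, 1 of 22 G1 control genes fell, E2f2 (-2.25 ± 0.43, adjusted p = 0.0379), and 0 of the other lists were called.

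Between epithelium and mesenchyme of wt embryos at E11.5, 21 of the 42 genes were lower in EpCAM+ cells and 1 was higher, where 22.2% of all genes tested were called (11.5% higher and 10.7% lower) (edgeR). The median log2 fold change was -0.64, beside 0.01 for all genes tested. Both general marks of division were lower in epithelium, Mki67 by a log2 fold change of -2.15 ± 0.20 (adjusted p = 2.87e-06) and Top2a by -1.39 ± 0.17 (adjusted p = 5.38e-05). All 3 nucleotide synthesis genes were lower, among them both subunits of ribonucleotide reductase, Rrm1 (-1.02 ± 0.14) and Rrm2 (-1.46 ± 0.17). Of 11 mitosis genes, 7 were lower, among them Kif11 (-1.22 ± 0.23), the checkpoint kinase Bub1 (-1.21 ± 0.21) and Plk1. Of 10 replication genes, 2 were lower, among them the helicase subunit Mcm4 (-0.97 ± 0.19).

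The D-type cyclins Ccnd2 (-1.43 ± 0.16) and Ccnd3 (-1.45 ± 0.13) were lower in wt epithelium, as was the MuvB partner Mybl2 (-1.49 ± 0.33). Ccnd3 was at 173, 158 and 154 CPM in EpCAM+ and 314, 317 and 354 in mesenchyme libraries. Cdkn1a, which blocks cyclin-dependent kinases downstream of Trp53, went the other way. It was at 268, 307 and 356 CPM in wt epithelium and at 3.16, 4.44 and 6.23 in wt mesenchyme (log2 fold change 5.66 ± 0.41, adjusted p = 3.09e-07), so that every epithelial library was far above every mesenchymal one. Exons of Cdkn1a and Ccnd3 overlap genes on the opposite strand, with the strand setting not given. The mesenchyme libraries held the red cell transcripts given above, whose part in these differences was not tested. Macrophage transcripts summed to 94.2 to 885 CPM in epithelium and 1.76 to 11.6 in mesenchyme. With the EpCAM+ libraries richest in C1qa dropped, 18 genes were called in place of 22. The wt EpCAM+ libraries kept in that fit still held C1qa at 40.8 and 15.2 CPM, against 0.057 to 0.112 in wt mesenchyme. The fit thus cannot show the part of macrophage transcripts. Without mesenchyme wt replicate 2 the number of genes called was 14 in place of 22. Of the other lists, 9 of 40 S phase genes and 20 of 42 G2 and mitosis genes were lower in epithelium and 0 higher, and of 23 G1 control genes 5 were lower, among them the CDK inhibitor Cdkn1c (-1.58 ± 0.31, adjusted p = 0.00214), and 1 was higher, Mycn (2.08 ± 0.35, adjusted p = 0.000609), a driver of cell growth.

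Between Id2KO epithelium and Id2KO mesenchyme, 9 of the 42 genes were lower in epithelium and 1 was higher, where 24.0% of all genes tested were called (13.2% higher and 10.8% lower). Mki67 (-0.99 ± 0.19, adjusted p = 0.00173), Ccnd3 (-0.98 ± 0.13, adjusted p = 6.12e-05), Bub1, Top2a, Cenpa, Rrm2, Rrm1, Mcm4 and Ccne1 were lower. The 1 gene higher was again Cdkn1a, at 320.2, 279 and 396 CPM against 4.35, 1.67 and 1.51 (7.02 ± 0.44, adjusted p = 6.13e-08). Ccnd2 was not called here (-0.10 ± 0.16). The count fell from 10 to 2 without the EpCAM+ libraries with C1qa, which leaves 1 Id2KO epithelial library whose spread is taken from the other groups. These 2 comparisons share no libraries.

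Lgr5+ cells of Id2KO embryos were set against EpCAM+ cells of the same genotype. Of the 42 genes, 1 was higher and 0 were lower, where 3.14% of all genes tested were called (1.58% higher and 1.56% lower). It was Cenpe, the kinesin that moves chromosomes to the spindle equator, at 579, 518 and 479.9 CPM in Lgr5+ and 299, 254 and 333 in EpCAM+ libraries (log2 fold change 0.79 ± 0.14, adjusted p = 0.012). The ranges did not overlap, and the wt EpCAM+ libraries, at 354, 337 and 302 CPM, also lay below the Lgr5+ ones. Without Lgr5+ replicate 1 the count was 0, and with the replicate number as a block, where same-numbered libraries of these groups deviated together, it was 2. Without the 3 libraries with C1qa, which leaves 1 Id2KO EpCAM+ library with its spread taken from the other groups, it was 1, but that gene was not Cenpe, whose log2 fold change was then 0.59 (adjusted p = 0.111). Over the 12 alternatives the fold change of Cenpe was 0.59 to 0.90, with adjusted p of 1.42e-05 to 0.111. Macrophage transcripts summed to 1.25 to 2.39 CPM in the Lgr5+ libraries and 2.46 to 1020 CPM in the EpCAM+ ones, and enterocyte transcripts (7 genes) to 191 to 231 against 620.3 to 1524 CPM, and the part of either was not tested. Of the other G1 control genes, Cdkn2b, a CDK inhibitor (-4.36 ± 0.74, adjusted p = 0.00867), and Btg2, an antiproliferative gene (-1.06 ± 0.18, adjusted p = 0.00783), were lower in Lgr5+ cells.

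Against wt EpCAM+ cells, 14 of the 42 genes were higher in the Id2KO Lgr5+ libraries and 0 were lower, where 3.04% of all genes tested were called (1.68% higher and 1.36% lower). This comparison differs in both genotype and sort, and shares its wt libraries with that of EpCAM+ cells. Mitosis supplied 6 of the 14 (among them Cenpf, Bub1, Aurkb, Cdc20 and Cenpe), the cyclins and kinases 3 (Ccnb1, Ccnd2 and Cdk1) and nucleotide synthesis 2 (Rrm1 and Rrm2), and Top2a and Cdc6 were among the others. Top2a was at 343, 385 and 358 CPM in these libraries (1.06 ± 0.16, adjusted p = 0.00488), and Cenpf, a kinetochore protein, was at 333, 392 and 324 against 205, 202 and 172 in wt EpCAM+ ones (0.87 ± 0.13, adjusted p = 0.00437). Both kept their call in all 12 alternatives. Ccnb1, the mitotic cyclin, was at 233, 324 and 262 CPM (1.01 ± 0.17, adjusted p = 0.0103), and Ccnd2 at 830.4, 862 and 1000.2 (0.86 ± 0.15, adjusted p = 0.0109). For Ccnd2, the Lgr5+ libraries stood between the wt and the Id2KO EpCAM+ ones. The number called was 3 without wt replicate 2, 4 without wt replicate 3, 7 without Lgr5+ replicate 2 and 4 without Lgr5+ replicate 3. Of other genes, 7 of 42 in G2 and mitosis were higher, among them Cdca2 (1.22 ± 0.16, adjusted p = 0.00222), and E2f8 was the 1 of 40 S phase genes (1.70 ± 0.27, adjusted p = 0.00698). Enterocyte transcripts, summed over 7 genes, were at 191 to 231 CPM in the Lgr5+ libraries and at 636 to 1026 CPM in wt EpCAM+ ones. Macrophage transcripts summed to 1.25 to 2.39 CPM against 94.2 to 885 CPM. The part of either was not tested. With the EpCAM+ libraries richest in C1qa dropped, 17 genes were called, all higher, with all 14 among them. That fit kept 2 wt EpCAM+ libraries, which still held C1qa at 40.8 and 15.2 CPM, against 0.029 to 0.121 in the Lgr5+ ones. It thus kept a macrophage difference and cannot show the part of these transcripts.

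At E13.5, Lgr5+ cells were set against EpCAM+ cells, and 2 of the 42 genes were higher and 0 lower, where 1.75% of all genes tested were called (0.794% higher and 0.958% lower) (edgeR). Cdk1 was at 679, 606, 636 and 574 CPM in the 4 Lgr5+ libraries and 395, 342, 379 and 290.5 in the 4 EpCAM+ ones (log2 fold change 0.84 ± 0.14, adjusted p = 0.00638). Birc5, or survivin, a subunit of the chromosomal passenger complex, was at 488, 507, 466 and 445 against 302, 325, 332 and 264 CPM (log2 fold change 0.65 ± 0.13, adjusted p = 0.0192). Neither gene's ranges overlapped. Ccnb1 was also without overlap, at 356, 297, 419 and 381 against 287, 184, 214 and 122 CPM, but was not called (log2 fold change 0.87 ± 0.23, adjusted p = 0.0936), and neither was Top2a (0.61 ± 0.24, adjusted p = 0.368). EpCAM+ libraries varied among themselves: Top2a was at 808, 477, 445 and 298 CPM, with replicate 1 the highest and replicate 4 the lowest.

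The median log2 fold change of the 11 mitosis genes was 0.66 and that of the 10 replication genes -0.01, beside -0.00 for all genes tested. At an unadjusted p under 0.05 there were 18 of the 42, and the DESeq2 Wald test called 10. The 1.75% above is for the edgeR adjusted p, and the shares of all genes for these other counts are not given. Without EpCAM+ replicate 1 the number called was 7, and without Lgr5+ replicate 3, Lgr5+ replicate 4 or EpCAM+ replicate 4 it was 1. With the replicate number as a block it was 8, all higher, and the labels state no pairing of these libraries. Of 42 other G2 and mitosis genes, 4 were higher in Lgr5+ cells, among them the spindle protein Nusap1 (1.18 ± 0.23, adjusted p = 0.0186) and Ube2c, which tags mitotic cyclins for breakdown (1.14 ± 0.21, adjusted p = 0.0111). Of 40 S phase and 22 G1 control genes, 0 were called. The enterocyte sum was at 150 to 232 CPM in Lgr5+ and 690 to 968 CPM in EpCAM+ libraries, and its part was not tested.

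Between E11.5 and E13.5, the genes of 1 phase did not move together. In EpCAM+ epithelium, 12 of the 42 genes were higher at E13.5 than in wt E11.5 libraries and 12 were lower, where 40.4% of all genes tested were called (19.3% higher and 21.1% lower). The 12 higher were the division marks Top2a and Mki67, the inhibitor Cdkn1b, the replication and nucleotide genes Mcm4, Rrm1 and Rrm2, the mitotic pair Ccnb1 and Cdk1, and Kif11, Bub1, Bub1b and Aurkb of mitosis. The 12 lower were the loading and helicase genes Cdt1, Mcm2 and Mcm6, the G1 and S phase regulators Ccnd3, Ccne1, Ccna2, Cdk4 and Cdk6, the inhibitor Cdkn1a, the factor Mybl2, and Cdc20 and the centromeric histone Cenpa. The direction thus divided within the Mcm helicase, between Mcm2 or Mcm6 and Mcm4, and within mitosis, between Cdc20 and Kif11.

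Top2a was at 808, 477, 445 and 298 CPM in the 4 E13.5 libraries, all above the highest of the 3 wt E11.5 libraries at 196 (1.74 ± 0.28, adjusted p = 0.000316). Mki67 was at 256, 242, 268 and 203 CPM (1.07 ± 0.18, adjusted p = 0.000517). Mcm2, a subunit of the replicative helicase, was at 93.6, 100.4, 76.7 and 89.9 CPM, below all E11.5 libraries (-1.13 ± 0.15, adjusted p = 7e-05). Cdc20 was at 48.3, 58.2, 27.5 and 28.7 CPM, also below all of them (-1.72 ± 0.24, adjusted p = 9.46e-05). Mcm5, at 206, 147, 108 and 84.7 CPM, overlapped with the wt E11.5 libraries and was not called (0.24 ± 0.25). Ccnd2 was not called either (0.40 ± 0.15, adjusted p = 0.0564).

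Some G1 and S phase regulators changed strongly, while Ccnd2, Ccne2, Cdk2 and E2f1 were not called. Cdk4 was called but moved less, with log2 fold changes of -0.547 to -0.433 over the alternatives. Ccne1, the cyclin that starts S phase, was at 117, 119 and 93.6 CPM at E11.5 and 30.7, 25.3, 13.2 and 17.5 at E13.5 (-2.15 ± 0.25, adjusted p = 2.37e-05). Ccnd3 was at 28.8, 32.4, 17.3 and 34.2 CPM at E13.5 (-2.33 ± 0.21, adjusted p = 3.1e-06), against 154 to 173 at E11.5. The 2 CDK inhibitors moved in opposite directions. Cdkn1a fell to 38.5, 72.3, 53.1 and 47.4 CPM (-2.37 ± 0.21, adjusted p = 2.59e-06), while Cdkn1b rose from 4.29, 4.01 and 5.97 to 34.6, 27.0, 42.9 and 47.5 (3.20 ± 0.31, adjusted p = 5.18e-06). Macrophage transcripts summed to 0.200 to 2.08 CPM at E13.5 against 94.2 to 885 in the wt E11.5 libraries. Without the wt library over 100 CPM of C1qa, 22 genes were called in place of 24, 11 in each direction. The 2 wt libraries left still held C1qa at 40.8 and 15.2 CPM. For all 5 of Ccne1, Ccnd3, Cdkn1a, Cdkn1b and Mcm2, the calls held in every alternative run. Of the other lists, 10 of 40 S phase genes rose and 5 fell, among them Uhrf1, which carries DNA methylation through copying (1.96 ± 0.16), and 11 of 42 G2 and mitosis genes rose and 2 fell, among the first Lbr, a receptor of the nuclear membrane (2.95 ± 0.23). The G1 control list gave 4 higher, among them the antiproliferative Btg1 (2.33 ± 0.21) and Btg2 (2.22 ± 0.21), and 7 lower, among them E2f4 (-1.63 ± 0.18).

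**Figure D4:**
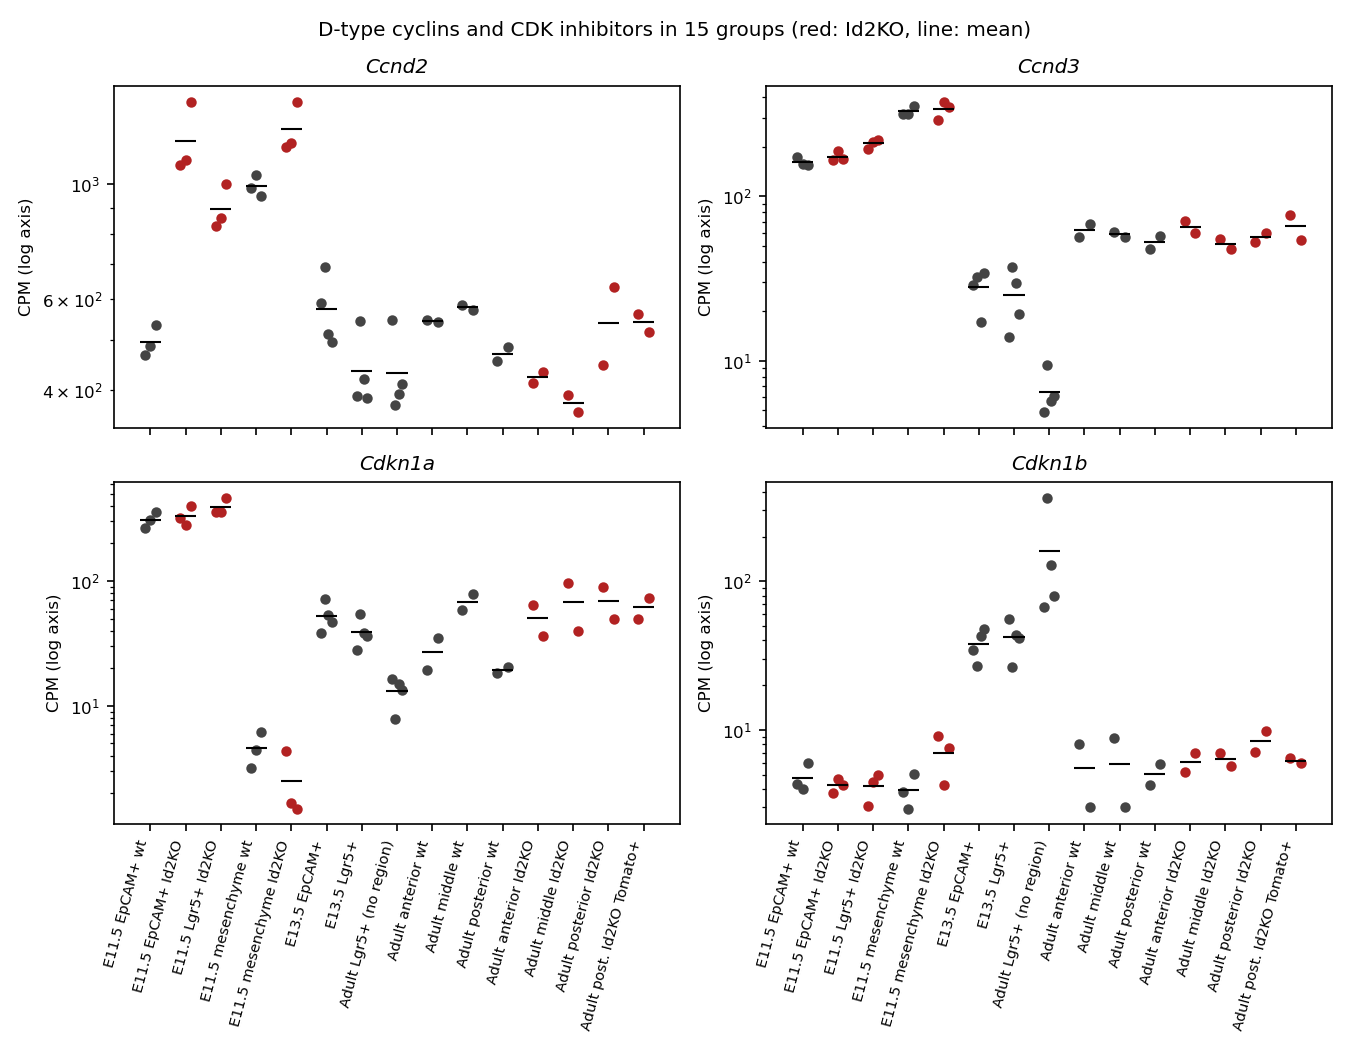
CPM on a log axis of 2 D-type cyclins and 2 CDK inhibitors in 15 groups; points are libraries (red where labelled Id2KO) and lines are means. Cdkn1b stands at 26.5 CPM or more in the E13.5 groups and the adult Lgr5+ group with no region, and at 9.87 CPM or less in all other groups; Cdkn1a is under 7 CPM in mesenchyme and above 267 CPM in E11.5 epithelium.

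Lgr5+ cells gave a similar comparison with other libraries. Of the 42 genes, 14 were higher in Id2KO Lgr5+ cells at E11.5 than in E13.5 Lgr5+ cells and 13 were lower, where 40.9% of all genes tested were called (21.1% higher and 19.9% lower). Stage and genotype differ together here and cannot be told apart. The higher genes included Cdkn1a (3.12 ± 0.21, adjusted p = 5.04e-07), Ccnd3 (2.86 ± 0.28), Ccne1 (2.60 ± 0.16, adjusted p = 2.95e-07), Mybl2 (2.57 ± 0.34), Cdt1 (1.83 ± 0.18), Cdc20 (1.81 ± 0.19), E2f1 (1.66 ± 0.42), Mcm2, Mcm6, Ccna2 and Ccnd2. The lower ones included Cdkn1b (-3.54 ± 0.33, adjusted p = 5.72e-06), Kif11 (-1.37 ± 0.15), Top2a (-1.29 ± 0.13), Mki67 (-1.27 ± 0.14), Bub1b (-1.18 ± 0.18), Cdk1, Ccnb1, Ccnb2, Tyms, Cenpf, Birc5 and Rrm2. Cdt1, the licensing factor that loads Mcm helicases, was at 117, 115.4 and 123 CPM at E11.5 and 33.3, 35.8, 22.8 and 24.3 at E13.5.

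From E13.5 to the adult, 20 of the 42 genes were lower in the Lgr5+ group with no region than in E13.5 Lgr5+ cells and 2 were higher, where 35.9% of all genes tested were called (18.6% higher and 17.3% lower). The median log2 fold change was -0.59, beside 0.02 for all genes tested. Mitosis gave 7 of the 20 and replication 4, and all 3 nucleotide synthesis genes were lower. Ccnb1 fell from 356, 297, 419 and 381 CPM to 86.5, 107, 112 and 77.2 (-1.85 ± 0.19, adjusted p = 1.2e-05), and no adult library reached an embryonic one. Rrm2 was at 620.0, 483, 537 and 495 against 93.9, 159.9, 245 and 197 CPM (-1.54 ± 0.24, adjusted p = 0.000359). The mitotic kinases Aurka (-1.37 ± 0.27), Bub1 (-1.15 ± 0.17) and Cdk1 (-0.91 ± 0.18) and the G1 kinase Cdk4 (-1.07 ± 0.13) were lower as well. The general marks were not called: Mki67 was at 357, 292, 309 and 344 CPM at E13.5 and 314, 314, 408 and 315 in that adult group (0.13 ± 0.14). Top2a was at 899.9, 689.6, 722 and 753 and 550.5, 583, 656 and 633 (-0.26 ± 0.14).

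The enterocyte sum was 150 to 232 CPM in the E13.5 libraries and 629.9 to 5154 in the adult ones, where replicate 4 stood apart and the other 3 were at 858 CPM or less. Without that library the number called was 21 in place of 22. The part of enterocytes in the result was not tested.

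The 2 genes that rose were Cdk6 (1.83 ± 0.49, adjusted p = 0.0113) and Cdkn1b (2.06 ± 0.54, adjusted p = 0.0117). Cdkn1b was at 56.0, 26.5, 43.5 and 41.6 CPM at E13.5 and 66.9, 365, 128 and 79.7 in the adult group with no region. Replicate 2 of that group stood far above the rest. Cdkn1a fell further (-1.51 ± 0.29, adjusted p = 0.00157), from 27.9, 54.3, 38.6 and 36.5 to 16.3, 7.91, 15.0 and 13.3 CPM. The adult segments, which were not tested against E13.5, differed from this group. In them Cdkn1b was at 3.02 to 9.87 CPM, below the E13.5 libraries, and Cdkn1a at 18.2 to 96.9. Rrm1 was at 405 to 582 CPM there, against 347 to 443 at E13.5, while Rrm2, at 73.4 to 167, was below the E13.5 libraries as in the group with no region. Among G1 control genes, 7 of 23 rose and 4 fell, with Cdkn1c, a CDK inhibitor of fetal tissues, at -6.80 ± 0.27 (adjusted p = 3.19e-09) and Mycn at -3.84 ± 0.27. Of 42 other G2 and mitosis genes 25 fell and 1 rose, and of 40 S phase genes 15 fell and 1 rose.

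The adult group with no region did not match the adult segments, although both are labelled Lgr5+ stem cells of the same age. In a comparison added after the data were seen, 12 of the 42 genes were higher and 19 lower in that group than in the mean of the 3 wt segments, where 56.6% of all genes tested were called (30.6% higher and 26.0% lower) and the median of all genes was shifted by 0.13 on the log2 scale. Of the 42 genes, E2f1, a factor that switches on S phase genes, had the most negative fold change, at 3.02, 2.17, 2.83 and 4.36 CPM against 18.0 to 55.2 in the 6 wt segment libraries (-3.17 ± 0.32, adjusted p = 3.34e-06). Ccnd3 (-2.80 ± 0.27), Cdc20 (-2.19 ± 0.19), Cdt1 (-2.09 ± 0.18), Ccna2 and Mcm6 (-1.92 ± 0.16) were lower as well. Mcm6 was at 163, 159, 277 and 219 CPM against 914 to 1035 in the wt segments, with no overlap. Cdkn1b had the most positive, at 66.9, 365, 128 and 79.7 CPM against 3.02 to 8.77 (5.26 ± 0.61, adjusted p = 4.97e-05). The kinetochore genes Cenpe (1.64 ± 0.15) and Cenpf (1.57 ± 0.20), Tyms (1.47 ± 0.12), Birc5, Cdk1, Gins2, Mki67, Pcna, Top2a, Rrm2 and Ccnb2 were higher too. The enterocyte sum was 325 to 834 CPM in the wt segments against the 629.9 to 5154 CPM given above, and without replicate 4 of the group with no region 30 genes were called in place of 31.

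The stage comparison in EpCAM+ cells and this adult comparison share no libraries, and their values are given side by side. Of the 12 genes lower at E13.5 than at E11.5, 9 were also lower in the adult group with no region than in the wt segments, 0 were higher and 3 were not called. Of all genes tested in both comparisons and lower at E13.5, 50.2% were lower in that adult group, 13.2% were higher and 36.5% were not called, so the same direction was common among genes at large. The 9 were Cdt1, Mcm2, Mcm6, Ccnd3, Ccne1, Ccna2, Cdc20, Mybl2 and Cdkn1a. Of the 12 genes higher at E13.5, 5 were also higher in that adult group (Mki67, Top2a, Rrm2, Cdk1 and Cdkn1b), 3 were lower (Rrm1, Aurkb and Bub1b) and 4 were not called, beside 52.1%, 16.1% and 31.8% of all genes higher at E13.5. The share of reads outside any gene was 12.0 to 22.1% in E11.5 libraries and 7.12 to 9.35% in the adult segments, against 22.2 to 28.7% at E13.5 and 23.2 to 31.0% in the adult group with no region. A library set and a stage cannot be told apart for E11.5 against E13.5, and in adults the library set, the sex of the animals and the gut region sampled cannot be told apart either.

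**Figure D5:**
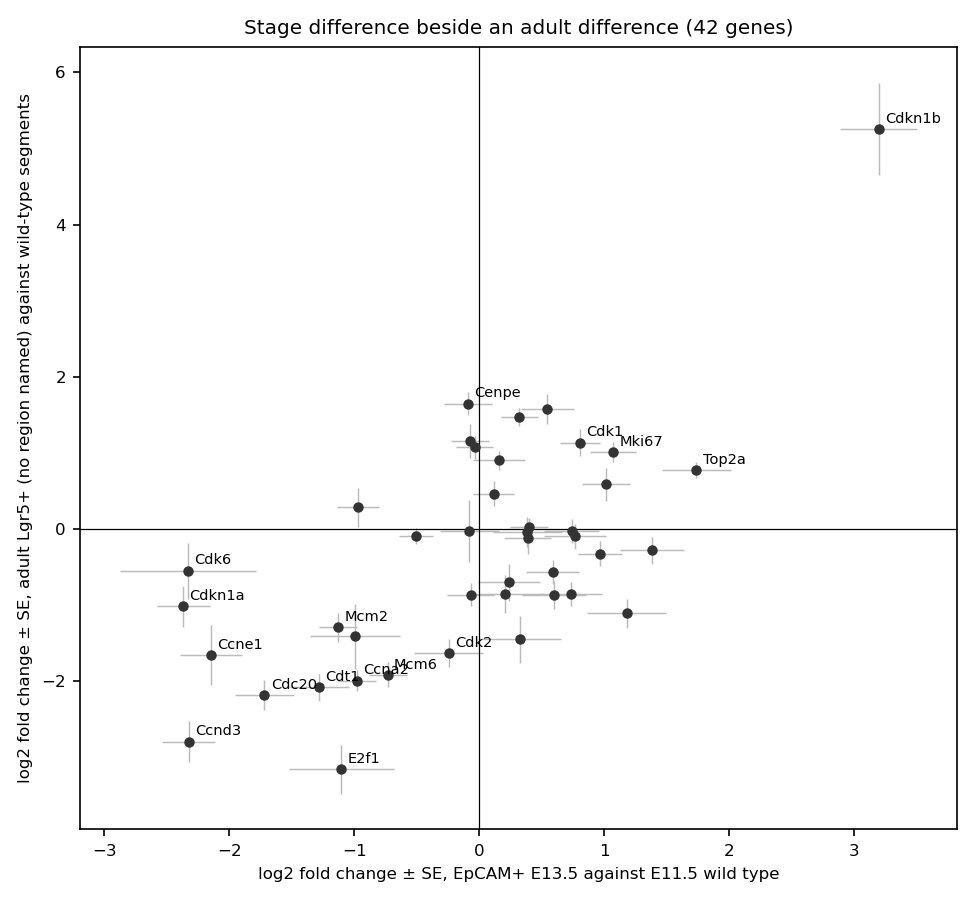
Log2 fold change ± standard error of 42 genes in EpCAM+ epithelium at E13.5 against wt E11.5 (horizontal) and in the adult Lgr5+ group with no region against the 3 wt segments (vertical). Cdkn1b is at the top right (3.20 and 5.26), and Ccnd3 (-2.33 and -2.80) and Ccne1 (-2.15 and -1.67) are at the lower left.

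The adult segments were compared by the Id2KO label. Id2 itself was higher in the libraries labelled Id2KO in the anterior and posterior segments and overlapped in the middle one. In the anterior segment 0 of 42 were called, where 1.50% of all genes tested were called (0.804% higher and 0.700% lower) (edgeR), with 8 at an unadjusted p under 0.05 and 3 by the DESeq2 Wald test. In the middle segment 1 was higher and 3 were lower in libraries labelled Id2KO, where 3.91% of all genes tested were called (1.63% higher and 2.28% lower). In the posterior segment 4 were higher and 1 was lower, where 5.16% of all genes tested were called (2.55% higher and 2.60% lower). The difference between the anterior and posterior effects gave 0 called genes, where 0.320% of all genes tested were called (0.171% higher and 0.149% lower), with 8 at an unadjusted p under 0.05 and 2 by DESeq2. The shares of all genes for the unadjusted and DESeq2 counts are not given, so these counts do not show whether the 42 genes stand out.

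Cdk2, the kinase that drives S phase with cyclins E and A, was lower in both the middle and the posterior segment. It was at 139 and 133 CPM in wt and 66.0 and 90.5 in labelled Id2KO middle libraries (-0.83 ± 0.18, adjusted p = 0.025), and at 134 and 132 against 83.5 and 71.0 in posterior ones (-0.80 ± 0.18, adjusted p = 0.0251). In the anterior segment the values were 125 and 163 against 91.2 and 88.1, so the lower values lay with the Id2KO label in all 3 segments. Exons of Cdk2 and of Cdc20 each overlap a gene on the opposite strand. Cdc20 was higher in both the middle and the posterior segment, at 255 and 230.1 against 347 and 395 CPM (0.58 ± 0.13, adjusted p = 0.027) and 251 and 206 against 340.3 and 325 (0.52 ± 0.13, adjusted p = 0.0355).

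Ccnd2 and Mcm6 were called lower in the middle segment and not in the others. Ccnd2 was at 584 and 572 CPM in wt and 391 and 361 in labelled Id2KO libraries (-0.65 ± 0.13, adjusted p = 0.0177), and Mcm6 fell by 0.43 on the log2 scale (adjusted p = 0.04). Whether these differences depend on the segment was not tested for the middle. In the posterior segment Ccna2 (0.49 ± 0.12, adjusted p = 0.0328), Plk1 (0.67 ± 0.17, adjusted p = 0.0364) and Cdkn1a (1.83 ± 0.46, adjusted p = 0.0412) were higher. Cdkn1a was at 18.2 and 20.4 CPM in wt and 89.1 and 49.7 in labelled Id2KO posterior libraries. With 2 libraries per group, leaving out 1 brought the middle count to between 0 and 2 and the posterior count to 0 or 1, whichever of the 4 libraries was left out. The Paneth and goblet cell sum of 6 genes ran from 299 to 1404 CPM in wt posterior and from 967 to 2225 in labelled Id2KO posterior libraries. In the middle segment it went the other way without overlap, at 1166 to 1628 CPM in wt and 410 to 658 in labelled Id2KO libraries. The enterocyte sum was lower with the Id2KO label in both, at 665 to 834 against 167 to 634 CPM in the middle and 331 to 684 against 207 to 284 in the posterior segment. The part of these cell types in the calls was not tested.

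Outside the 43 genes, Ung, which removes uracil from DNA, was higher in labelled Id2KO libraries of all 3 segments, with log2 fold changes of 3.59 ± 0.27, 3.42 ± 0.27 and 3.23 ± 0.27 and adjusted p of 2.5e-05, 2.1e-05 and 2.74e-05. It was one of 2 S phase genes higher in the anterior segment, 1 in the middle and 2 in the posterior. The G1 control gene Btg2 was higher in the middle (0.83 ± 0.15, adjusted p = 0.00923) and posterior (1.03 ± 0.15, adjusted p = 0.00226) segments, and Ccnd1, another D-type cyclin, was lower in the middle segment (-0.82 ± 0.15, adjusted p = 0.00832). Among G2 and mitosis genes, 0 rose and 1 fell in the anterior segment, and 4 rose and 0 fell in each of the other two.

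Anterior and posterior segments were compared within each genotype label. A count of 1 among the 42 genes does not show whether they differ from all genes. In wt libraries 1 gene was lower in the anterior than in the posterior segment, where 4.81% of all genes tested were called (3.03% higher and 1.78% lower). It was Pcna, the sliding clamp of replication, at 71.1 and 70.0 against 99.1 and 99.6 CPM (-0.50 ± 0.12, adjusted p = 0.0382). Its call was lost without posterior wt replicate 1, posterior wt replicate 2 or anterior wt replicate 2, and without anterior wt replicate 1 there were 5 called genes. In libraries labelled Id2KO 1 gene was lower, where 2.0% of all genes tested were called (0.968% higher and 1.03% lower). It was Top2a, at 348 and 362 against 523 and 473 CPM (-0.48 ± 0.11, adjusted p = 0.0499). That call was lost whichever 1 of the 4 libraries was left out. Tomato+ and other Lgr5+ cells of the posterior segment labelled Id2KO gave 0 called genes of the 42, where 0.00% of all genes tested were called (0.00% higher and 0.00% lower), with 7 at an unadjusted p under 0.05 and 0 by DESeq2. With no gene called at all, the count of 0 is not particular to the 42 genes. The share of all genes for the unadjusted count is not given.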

How the data were processed

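RNA from 250 sorted cells per library was amplified from polyadenylated RNA and sequenced as single-end reads, per the labels' protocols. The submitters' processing notes name bcl2fastq 1.8.4, STAR 2.3.1z13, SAMtools 1.2, HTSeq 0.6.1p1, DESeq2 1.6.3 and the mouse genome build mm9. The authors deposited whole-number read counts per gene for 41 libraries in 15 groups, with no normalization. The annotation and the strand setting of the counting are not given in the sources used here. The 5 rows of each table that name no gene (reads outside genes, ambiguous reads and the like) held 20.46 to 59.68% of the reads and were left out.

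Counts were tested with edgeR 4.0.16 (quasi-likelihood test, filterByExpr, TMM scaling, robust fit) in R 4.3.3 with limma 3.58.1, in 19 comparisons, with p-values adjusted by Benjamini-Hochberg over all genes tested and called under 0.05. Related groups were fitted together and share 1 estimate of the spread. Fold changes are given as log2 values ± standard error. The test was checked on simulated counts, drawn independently with the spread that edgeR had fitted. That check held no pairing, other cell types or library-set differences, so it cannot show their effect on the calls. The alternatives were RLE size factors, DESeq2 1.42.0, no filter on low counts, the compared groups fitted alone, a replicate block, and leaving out each library. Leaving out the 3 EpCAM+ libraries over 100 CPM of C1qa was added after seeing the data.

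The genes and the other lists were chosen with earlier results of these data known. Of 106 genes on the other lists, 105 were matched by symbol. Mki67, Top2a, Mcm2, Mcm5, Ccnd2, Ccnb1, Cdk1, Cdkn1a and Cdkn1b were followed throughout. Otherwise up to 12 called genes per direction with the smallest p were named in each comparison, and up to 3 per other list. The genes called in both the stage and the adult comparison were named after their values were seen. Exons of 12 of the 43 genes overlap genes on the opposite strand (Mcm7, Gins2, Ccnd2, Ccnd3, Cdk4, Cdk6, Ccne2, Cdk2, Ccna2, Cdc20, Plk1 and Cdkn1a). A further limit is that 5 (Pcna, Tyms, Ccnd3, Ccnb1 and Ccnb2) have named pseudogenes that could share reads. The values of both sets are uncertain to that extent.

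No library was a copy of another: of 40 pairs within groups, 0 held identical counts, and chi-square tests of the paired counts gave 22.91 to 229.84 per degree of freedom. Same-numbered libraries deviated together for E11.5 Id2KO Lgr5+ and EpCAM+ cells, with correlations of their deviations from the group means of 0.263, 0.345 and 0.166. For E13.5 Lgr5+ and EpCAM+ cells they were 0.060, 0.317, 0.112 and 0.140, with differently numbered pairs at -0.197 to 0.145. For E11.5 Id2KO EpCAM+ cells and mesenchyme they were 0.122, 0.240 and 0.078, with differently numbered pairs at -0.196 to 0.071. In these 3 cases the labels do not state a pairing. The block is given beside the result in the first 2. For Id2KO EpCAM+ cells against mesenchyme it gave 10 called genes, the same number as without it. Adult anterior and posterior libraries labelled Id2KO, 2 per group, had correlations of 0.191 for same-numbered pairs and -0.191 for the others. There the block gave 0 called genes in place of 1.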

Additional observations from a re-analysis of the deposited data

Results flagged for a closer look

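Among 126 sets of 1 gene in 1 group of 4 libraries, 5 held a library whose gap to the nearest of the others took up more of the group's range than Dixon's 95% limit allows, and chance alone flags about 1 in 20 such sets. Of these, 3 concern EpCAM+ replicate 2 at E13.5. In that library Cdk2, the S phase kinase, was at 19.4 CPM against 42.1 to 45.7 in the other 3, Cenpa, the centromeric histone, was at 163 CPM against 109 to 116, and Foxm1, a factor that switches on mitotic genes, was at 25.3 CPM against 12.6 to 14.5. Cdc20 was at 91.6 CPM in E13.5 Lgr5+ replicate 2 against 50.5 to 57.4 in the others. Mki67 was at 408 CPM in replicate 3 of the adult Lgr5+ group with no region, against 314 to 315 CPM in the others.

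Ccnd2 is listed because its Id2KO effect at E11.5 differed between EpCAM+ epithelium and mesenchyme by a log2 fold change of 1.33 in a direct test of the difference.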

How the results depend on the processing

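Of 143 results for single genes, each called in 1 comparison, 1712 values under alternatives were computed. Direction and call held in 1489, the call was lost in 223, and 0 reversed. Of the lost calls, 178 came from leaving out 1 library. The cause of the following changes was not tested, beyond the smaller number of libraries where some were left out. With the DESeq2 Wald test the number of the 42 genes called was 14 for Id2KO against wt in EpCAM+ cells, 1 in mesenchyme, 3 for the difference between those effects, 2 for Id2KO Lgr5+ against EpCAM+ cells, 10 at E13.5, 3 and 9 for the Id2KO label in the anterior and middle segments, 2 for the anterior effect minus the posterior, and 2 each for anterior against posterior in wt and in labelled Id2KO libraries. With no filter on low counts it was 4 at E13.5, 4, 9 and 11 in the anterior, middle and posterior segments, 2 for the anterior effect minus the posterior, and 5 for wt anterior against posterior. With the compared groups fitted alone it was 1 in E11.5 EpCAM+ cells, 2 and 3 in the middle and posterior segments, and 0 for anterior against posterior in either genotype label. RLE size factors gave 0 for labelled Id2KO anterior against posterior. Leaving out the 3 EpCAM+ libraries over 100 CPM of C1qa gave fewer for Id2KO epithelium against mesenchyme, with 1 epithelial library left. The shares of all genes called under the alternatives in this section are not given. These counts thus do not show whether the 42 genes stand out under a setting.

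With the replicate number as a block, the number called was 2 for Id2KO Lgr5+ against EpCAM+ cells and 8 at E13.5. Correlations of same-numbered E13.5 libraries were 0.060, 0.317, 0.112 and 0.140, and the labels state no pairing. The number with the block was 0 for anterior against posterior in either label, where there are 2 pairs. The block lost 13 of the calls of single genes that were followed.

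Leaving out 1 library at a time gave 1 to 6 genes for Id2KO against wt in EpCAM+ cells, 0 to 1 for the difference between the effects, 14 to 20 for wt epithelium against mesenchyme, 0 to 1 for Id2KO Lgr5+ against EpCAM+ cells and 3 to 13 against wt EpCAM+ cells. It gave 1 to 7 at E13.5, 0 to 2, 0 to 2 and 0 to 1 in the anterior, middle and posterior segments, and 0 to 5 and 0 to 1 for anterior against posterior in wt and labelled Id2KO libraries. In groups of 2, the lone library left is assumed to vary like the other groups.

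Groups of 2 to 4 libraries limit what can be called, and low genes such as Cdkn1b in E11.5 epithelium carry larger errors. Genotype, sex, sort and library set differ together in several comparisons, and bulk libraries do not separate the number of dividing cells from the RNA of each.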
